A study of Mus musculus with 30 samples.

Results

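The 8 tetraspanin genes described here are Cd9, Cd37, Cd53, Cd63, Cd81, Cd82, Cd151 and Tspan32, chosen by name for their known place on B cells or other blood cells. All 8 were found in each of the 2 deposited expression tables, among 22781 genes of the aged table and 26266 genes of the young table. Expression was measured by RNA-seq of splenic B cells in 18 of the 30 samples of the series, all from C57BL/6 mice, and the 12 chromatin samples were not analysed here. The 3 young homozygous libraries came from mice aged 2 to 3 months with the genotype Ikzf3 fl/fl, a conditional knock-in that puts a missense form of Aiolos, the zinc finger transcription factor encoded by Ikzf3, into B cells only. The 3 young wild-type libraries came from mice of the same age. From mice aged 15 to 18 months there were 5 libraries of CLL cells (4 heterozygous Ikzf3 fl/+ and 1 homozygous Ikzf3 fl/fl), sorted by flow cytometry as B220+CD5+ cells of leukaemic mice, 4 libraries of non-CLL B cells (3 heterozygous and 1 homozygous) and 3 libraries of wild-type B cells. CLL and non-CLL libraries with the same number came from the same mutant mouse. B cells were enriched with magnetic beads, to a stated purity of at least 85% in the aged set, so other spleen cells can be present. The labels do not name the Cre driver, and nothing in them says whether each young library came from a separate animal, so p-values measure only the spread between these libraries.

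Tetraspanins are small membrane proteins that cross the membrane repeatedly and bind each other and partner receptors, which places those receptors in shared membrane patches. On B cells CD81 stands in a coreceptor complex with CD21 (encoded by Cr2), and CD37 and CD53 are abundant tetraspanins of leukocytes. In mice CD9 marks marginal zone B cells, B-1 cells and plasma cells, and it is also abundant on platelets. CD63 is a tetraspanin of late endosomes, lysosomes and secreted vesicles, CD82 binds integrins and other receptors and was first described as a suppressor of metastasis, CD151 binds laminin-binding integrins, and Tspan32 encodes a tetraspanin restricted to blood cells.

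The genes lie at chr6:125460266-125494760 (Cd9, minus strand), chr7:45233632-45239340 (Cd37, minus), chr3:106758861-106790149 (Cd53, minus), chr10:128896231-128912822 (Cd63, plus), chr7:143052750-143067930 (Cd81, plus), chr2:93419102-93462950 (Cd82, minus), chr7:141467362-141471481 (Cd151, plus) and chr7:143004907-143019486 (Tspan32, plus) in the RefSeq annotation of GRCm38.p6, the assembly of mm10. Tspan32 and Cd81 are neighbours on chromosome 7, with R74862, a long noncoding RNA gene, between them and overlapping Cd81 by 937 bases. Whether counting used strand is not given in the sources used here, so reads in that overlap cannot be assigned to 1 of the 2 genes. The 250 bases before the first listed start of Cd9, Cd81 and Cd82 are shown because these are the 3 members that passed the test in any comparison below. The sequences are RefSeq's (GRCm38.p6), written 5′ to 3′ on the strand of the gene, from chr6:125494761-125495010 (minus) for Cd9, chr7:143052500-143052749 (plus) for Cd81 and chr2:93462951-93463200 (minus) for Cd82. Capitals mark GGGAA, the core of the sites known for the Ikaros family to which Aiolos belongs, or TTCCC, the same core read on the other strand.
Cd9: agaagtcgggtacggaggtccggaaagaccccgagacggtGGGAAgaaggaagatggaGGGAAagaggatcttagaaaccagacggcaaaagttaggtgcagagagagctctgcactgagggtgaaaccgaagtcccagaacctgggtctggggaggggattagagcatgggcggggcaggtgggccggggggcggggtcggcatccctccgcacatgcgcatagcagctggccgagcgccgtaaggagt
Cd81: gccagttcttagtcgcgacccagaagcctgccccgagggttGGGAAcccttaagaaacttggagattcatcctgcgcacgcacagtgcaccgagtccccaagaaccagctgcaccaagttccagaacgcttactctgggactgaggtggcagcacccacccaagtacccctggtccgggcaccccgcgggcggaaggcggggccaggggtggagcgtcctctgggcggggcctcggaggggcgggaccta
Cd82: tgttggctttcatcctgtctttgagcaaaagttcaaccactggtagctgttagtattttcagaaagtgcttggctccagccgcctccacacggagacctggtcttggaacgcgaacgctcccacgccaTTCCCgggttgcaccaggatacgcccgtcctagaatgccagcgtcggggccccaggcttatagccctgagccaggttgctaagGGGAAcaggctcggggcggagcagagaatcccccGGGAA
The Cd9 window held 2 matches, the Cd81 window 1 and the Cd82 window 3. Over the 8 members, 8 of 12 annotated windows of 250 bases held at least 1 match on either strand, against 56.2% of all 32851 promoter windows of that length, and the windows of Cd37 and Cd53 held none. A match in a window of this length is a description of the letters only.

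All values are TPM, a transcript's abundance corrected for its length and expressed relative to the library total, which keeps no record of depth. The B cell markers Cd79a, Cd79b, Ms4a1, Pax5, Blk, Cd22 and Fcrla were all detected in each group, with summed levels between 4950.2 and 13145 TPM per library. In the aged table a background level was read from the median of 1106 olfactory receptor genes, which B cells are not known to use. It was 3.47 ± 3.54 TPM (SD, n = 5) in CLL, 8.25 ± 0.868 TPM (n = 4) in non-CLL and 0.248 ± 0.430 TPM (n = 3) in wild-type libraries, and 0 in each young library. Some libraries stood apart. Aged wild-type library 2 held both the X-inactivation transcript Xist (38.1 TPM) and the Y-linked Ddx3y (17.4 TPM). It also had a low level of Cr2 (25.4 TPM, against 1274 and 776 TPM in the other wild-type libraries). Of the T cell transcripts Cd3g was at 596 TPM there, but Cd3e, Cd3d, Cd4 and Cd8a were at 0.281, 5.99, 5.18 and 5.22 TPM. CLL library 2 carried the myeloid transcripts Lyz2 (656 TPM) and S100a8 (100.2 TPM). Young wild-type libraries 1 and 2 expressed Xist (80.9 and 63.1 TPM), whereas young wild-type library 3 and all young homozygous libraries expressed Ddx3y instead (54.3 TPM, and between 107.0 and 148 TPM). Summed myeloid markers ranged from 202 to 462 TPM in young homozygous and from 1479 to 5412 TPM in young wild-type libraries. Ikzf3 itself was at 413 ± 29.6 TPM in young homozygous and 246 ± 31.2 TPM in young wild-type cells (log2 change 0.75, adjusted p = 0.000869, limma), and it passed the test in none of the aged comparisons. A missense change leaves the transcript in place, so Ikzf3 does not check the labels.

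The members spanned 3 bands of abundance. In young homozygous cells Cd37 was the most abundant at 1466 ± 52.1 TPM (SD, n = 3), followed by Cd53 at 458 ± 46.7 TPM. Cd81 (156 ± 15.0 TPM), Tspan32 (131 ± 7.95 TPM) and Cd82 (118 ± 5.16 TPM) came next, then Cd9 (62.4 ± 6.92 TPM), Cd151 (14.1 ± 0.713 TPM) and Cd63 (2.70 ± 0.224 TPM). Young wild-type cells also had Cd37 first (1268 ± 156 TPM) and Cd53 second (389 ± 21.7 TPM), but here Cd82 came next (171 ± 16.0 TPM), ahead of Cd81 (160 ± 4.88 TPM) and Tspan32 (130 ± 12.6 TPM). In the homozygous libraries Cd81 lay above Tspan32 without overlap, whereas Tspan32 and Cd82 overlapped. In the wild-type libraries Cd82 and Cd81 overlapped, and Cd81 lay above Tspan32 without overlap.

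In the aged table Cd81 was the most abundant member in each of the 12 libraries. CLL libraries averaged 2354 ± 784 TPM (n = 5), non-CLL libraries 1242 ± 413 TPM (n = 4) and wild-type libraries 1889 ± 484 TPM (n = 3). Cd37 followed at 717 ± 175, 475 ± 122 and 471 ± 152 TPM in CLL, non-CLL and wild-type cells. Tspan32 came next by mean (358 ± 105 TPM in CLL, 322 ± 72.3 TPM in non-CLL and 438 ± 115 TPM in wild-type cells) and Cd53 after it (336 ± 179 TPM in CLL, 291 ± 71.4 TPM in non-CLL and 410 ± 140 TPM in wild-type cells), and the 2 overlapped in every group. Cd9 (307 ± 124 TPM) and Cd82 (289 ± 247 TPM) were alike in the mean of the CLL libraries and overlapped there, but in the non-CLL libraries Cd9 (62.8 ± 17.1 TPM) lay below Cd82 (287 ± 60.7 TPM) without overlap. Cd63 and Cd151 were lowest, with group means between 7.68 and 12.8 TPM. Their non-CLL means (7.68 and 10.4 TPM) were close to the mean background level of those libraries, 8.25 TPM. That level was 3.47 TPM in CLL and 0.248 TPM in wild-type libraries. Young and aged tables were made separately and list the same gene on different scales, so the ranks of Cd81 and Cd37 in one table are not set against those in the other.

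**Figure D1:**
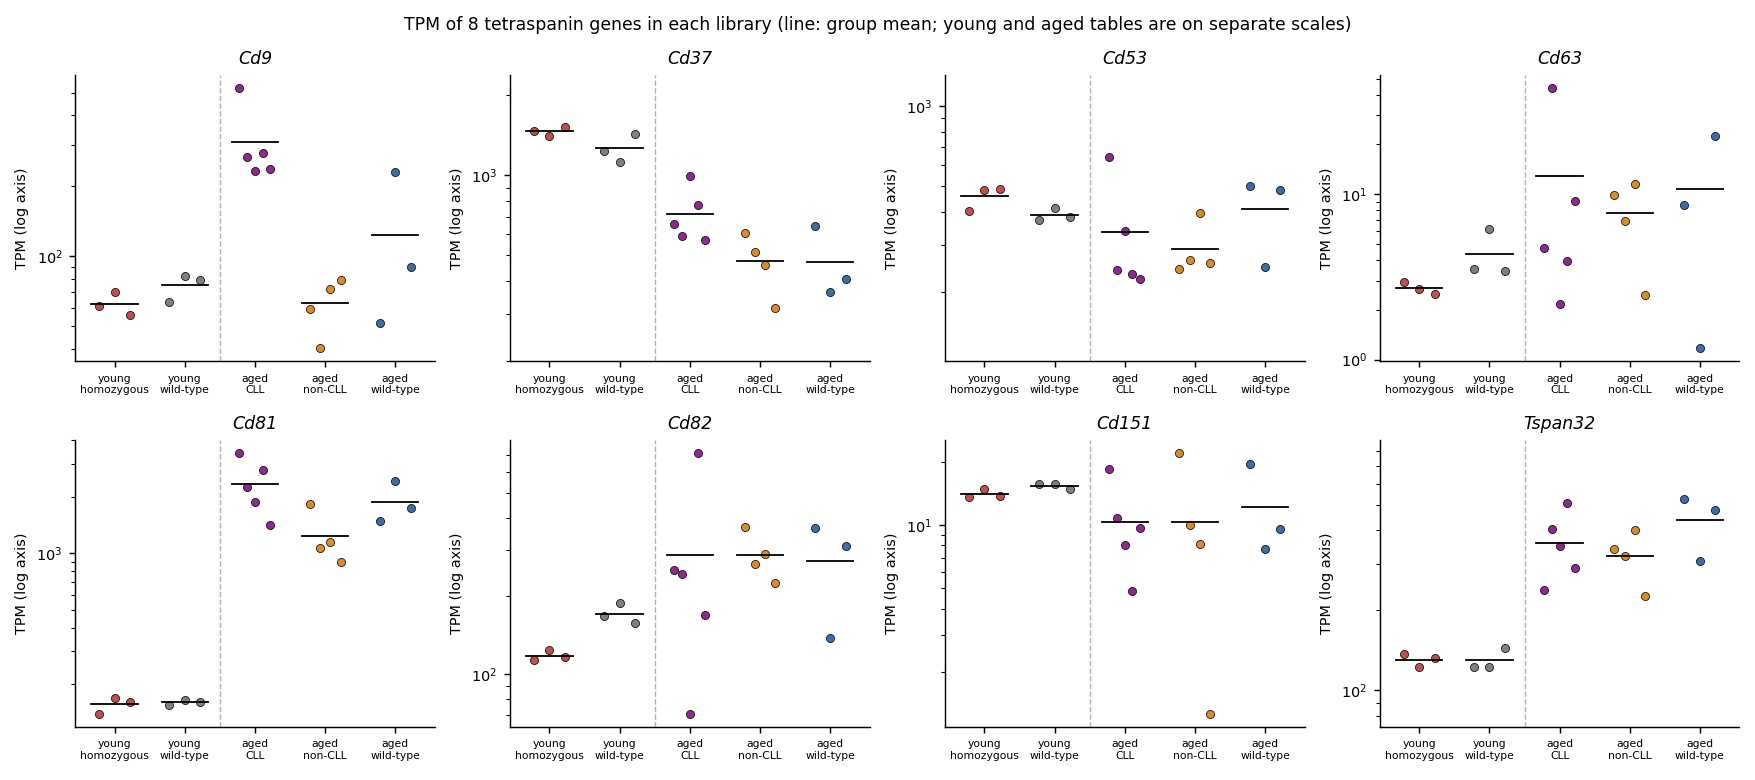
TPM on a log axis for each of the 8 tetraspanin genes, with 1 point per library and a line at the group mean; young groups stand left of the dashed line and aged groups right of it. The 5 CLL libraries sit above every non-CLL and wild-type library for Cd9, between 232 and 527 TPM, and the 3 young homozygous libraries sit below every young wild-type library for Cd82.

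The share of each gene in the summed TPM of the 8 does not depend on how a library was scaled. Cd9 made up between 5.24% and 9.12% of the sum in CLL, between 1.61% and 3.94% in non-CLL and between 1.44% and 6.15% in aged wild-type libraries, where only library 2 exceeded the lowest CLL library. Cd81 made up 52.9% ± 4.70 in CLL, 45.4% ± 5.02 in non-CLL and 51.9% ± 12.2 in aged wild-type libraries, which overlapped. Cd82 took 10.7% ± 0.380 in the non-CLL libraries (10.4% to 11.2%), but between 1.82% and 13.4% in the CLL libraries. In the young table Cd82 took between 4.69% and 5.16% of the sum in homozygous and between 6.61% and 8.89% in wild-type libraries, without overlap. Cd37 took 60.9% ± 1.88 in young homozygous and 57.2% ± 3.68 in young wild-type libraries.

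**Figure D2:**
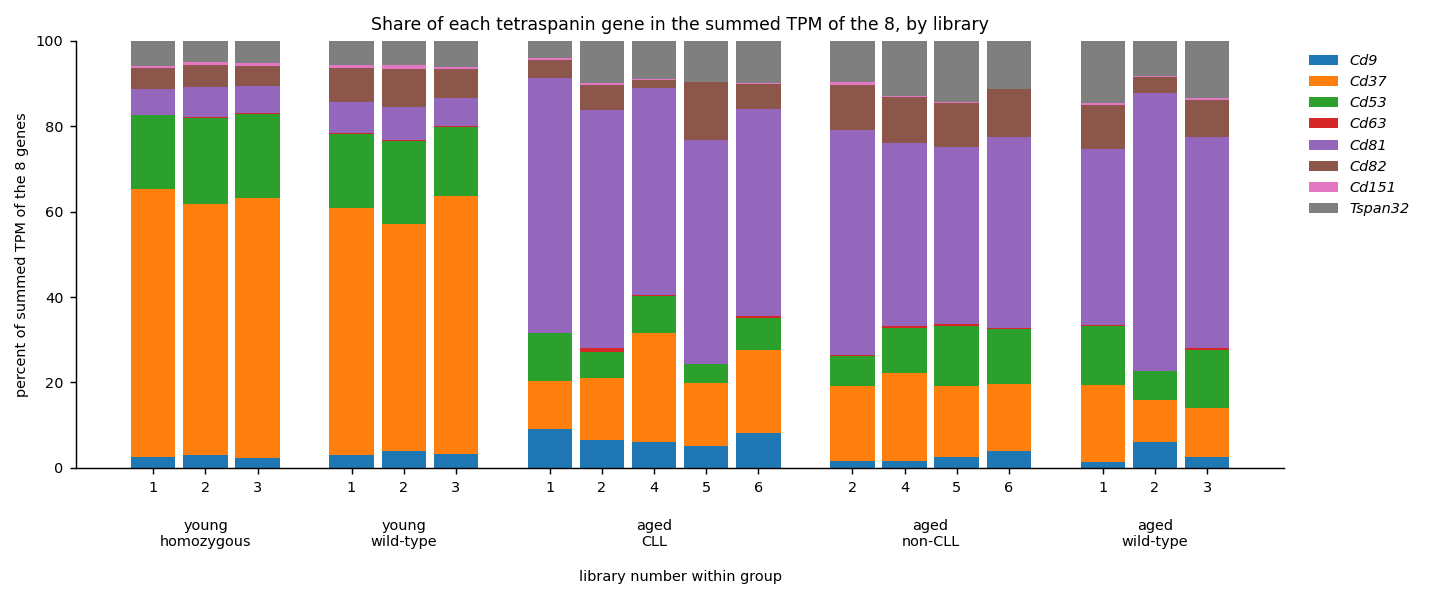
Percent of the summed TPM of the 8 tetraspanin genes taken by each gene, 1 stacked bar per library. Cd37 fills at least 53.2% of each young bar and Cd81 at least 41.3% of each aged bar; the Cd9 segment at the foot is at least 5.24% in every CLL bar and at most 3.94% in every non-CLL bar.

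The comparison of CLL cells with non-CLL B cells of mutant mice asks what distinguishes the leukaemic cells from B cells with the same mutation. Cd9 and Cd81 were called higher, Cd81 close to the threshold, and no member was called lower. Cd9 stood at 527, 266, 232, 277 and 236 TPM in CLL libraries 1, 2, 4, 5 and 6, against 59.5, 40.3, 72.4 and 79.1 TPM in non-CLL libraries 2, 4, 5 and 6. Every CLL library lay above every non-CLL library, which held for 1.17% of the genes tested, and library 1, which has no non-CLL partner, was the highest. Cd9 was 4.73-fold higher in CLL cells (log2 change 2.24, SE 0.29, 95% interval 1.65 to 2.83, adjusted p = 2.49e-05, limma). In the 4 mice that gave both samples the ratio was 4.41 (mouse 2), 5.63 (mouse 4), 3.79 (mouse 5) and 2.96 (mouse 6, the homozygous one). The call held in all 19 alternative fits, with adjusted p between 2.94e-08 and 0.0287, and without library 1 the log2 change was 2.03.

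Cd81, which encodes a member of the B cell coreceptor complex, stood at 3436, 2250, 1886, 2780 and 1419 TPM in the CLL libraries, against 1841, 1073, 1156 and 898 TPM in the non-CLL libraries. The groups overlapped in that CLL library 6 lay below non-CLL library 2, yet each mouse had more Cd81 in its CLL cells, by 1.22-, 1.76-, 2.4- and 1.58-fold in mice 2, 4, 5 and 6. The log2 change was 0.91 (SE 0.28, 95% interval 0.34 to 1.48, adjusted p = 0.0493, limma). The call held in 5 of 19 alternative fits, with adjusted p between 0.00715 and 0.249, and with the mouse as a block the change was 0.76 and missed the threshold (adjusted p = 0.0613). With 1 library left out the log2 change lay between 0.76 and 1.12, and the call was kept without CLL library 6 or non-CLL library 2 and lost without CLL library 1, 2, 4 or 5 or non-CLL library 4, 5 or 6; TMM rescaling (trimmed mean of M-values) put it at 1.83 (adjusted p = 0.0738).

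The 2 calls among 8 members compare with 5.77% of the 22316 genes tested, 0.744% called higher and 5.02% called lower. The median log2 change was 0.22 over the 8 members and -0.77 over all genes, but -0.06 over the 7175 genes with at least 20 TPM, of which 1.34% were higher. Cd37 was at 717 ± 175 TPM in CLL and 475 ± 122 TPM in non-CLL cells, a log2 change of 0.60 (95% interval 0.06 to 1.14, adjusted p = 0.0969), with more in CLL cells in 3 of 4 mice and a ratio of 0.969 in mouse 2. Tspan32 was higher in the CLL cells of 4 of 4 mice, but by ratios of only 1.09 to 1.28 (log2 change 0.13, 95% interval -0.42 to 0.69, adjusted p = 0.724). Cd53 had a log2 change of 0.11 (-0.50 to 0.71). The intervals of Cd63 (-1.26 to 1.45), Cd82 (-1.62 to 0.91) and Cd151 (-0.83 to 1.44) each held a change of 1 log2 unit in at least 1 direction, as did that of Cd37. A change of that size was therefore not excluded for these genes, though none of them passed the test.

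**Figure D3:**
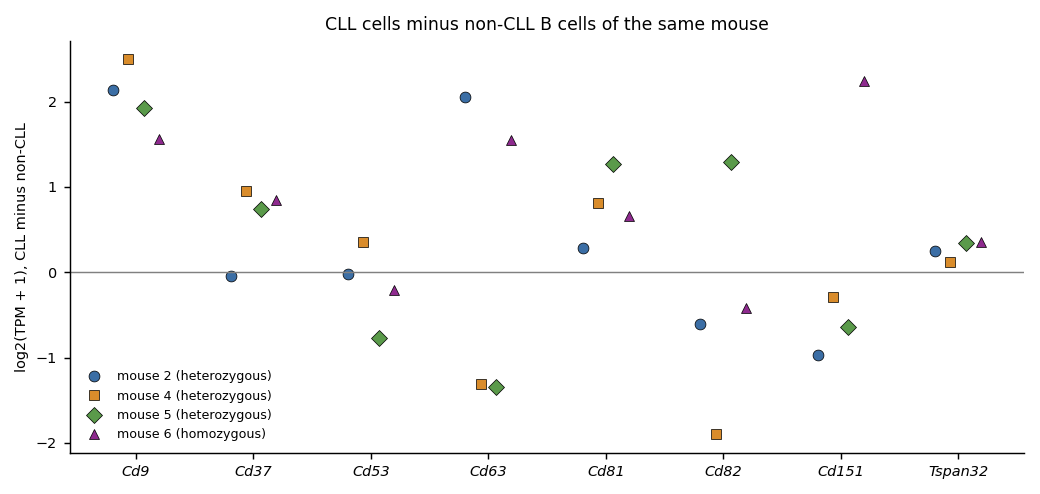
Difference in log2(TPM + 1) between CLL cells and non-CLL B cells of the same mouse for each gene, with 1 marker per mouse. All 4 mice lie above 0 for Cd9, Cd81 and Tspan32, whereas Cd63, Cd82 and Cd151 have mice on both sides, from -1.90 (Cd82, mouse 4) to 2.24 (Cd151, mouse 6).

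Several single libraries set the spread of the other members. Cd82 reached 712 TPM in CLL library 5 and 70.7 TPM in CLL library 4, a 10.1-fold range, while the other 3 CLL libraries held 252, 243 and 169 TPM. In the non-CLL libraries Cd82 was at 369, 266, 289 and 225 TPM, inside the range of the CLL libraries. Cd53 was at 646 TPM in CLL library 1 and between 223 and 337 TPM in the other 4. Cd63 was at 44.2 TPM in CLL library 2, the library with Lyz2 and S100a8, whereas CLL libraries 1, 4, 5 and 6 held 4.70, 2.17, 3.93 and 9.13 TPM. The part of myeloid transcripts in that value was not tested.

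Summed markers of other cells were read in the same libraries. Those of platelets were between 12 and 60.2 TPM in CLL, between 39.9 and 74.7 TPM in non-CLL and between 2.44 and 46.6 TPM in wild-type libraries, and the lowest sum of the CLL libraries was that of library 1, with the most Cd9. All 8 platelet markers had a mean of at least 1 TPM in CLL and in non-CLL libraries and 4 of 8 in wild-type libraries, and the highest single value in the non-CLL libraries was 15.5 TPM (Gp6, library 6), beside a background level of 8.25 TPM for 1 gene. Summed plasma cell markers were between 187 and 485 TPM in CLL and between 260 and 861 TPM in non-CLL libraries. Of the 8 listed markers of marginal zone and B-1 cells, 7 were found under the listed symbol. Mzb1 was not, and other symbols for it were not searched, so the sums lack it. The sums of the 7 were between 506 and 1234 TPM in CLL and between 312 and 510 TPM in non-CLL libraries. In the wild-type libraries they were between 475 and 1469 TPM. The members of that list differed in direction. Nid1, an extracellular matrix protein, was between 43.1 and 161 TPM in CLL and between 10.9 and 23.0 TPM in non-CLL libraries. S1pr3 was between 28.3 and 160.77 TPM in CLL and between 5.12 and 23.9 TPM in non-CLL libraries. Cd1d1 was between 57.7 and 326 TPM in CLL and between 33.2 and 82.65 TPM in non-CLL libraries, with overlap. Hopx was at most 5.20 TPM in CLL and at most 6.75 TPM in non-CLL libraries. Zbtb32 ranged from 21.954 TPM in CLL library 5 to 808 TPM in CLL library 1. CLL library 5 lay below every non-CLL library (84.7 to 197 TPM), so the groups overlapped for Zbtb32. Cr2 was at 54.0 TPM or less in 4 of the 5 CLL libraries, against 53.2 to 230 TPM in the non-CLL libraries, and Cd5, also in the list, was used to sort the CLL cells. Plasmacytoid and dendritic cell markers (6 of 6 with a mean of at least 1 TPM) summed to between 23.1 and 83.9 TPM in CLL and between 241 and 1150.5 TPM in non-CLL libraries. T and NK cell markers (8 of 9 in the table, all with a mean of at least 1 TPM in both groups) summed to between 13.7 and 387 TPM in CLL and between 166 and 518 TPM in non-CLL libraries. The 387 TPM of CLL library 1 was mostly Cd3g (362 TPM). The ranges of CLL and non-CLL libraries overlapped for each of these lists except the plasmacytoid and dendritic one. For the marginal zone and B-1 list this holds for the 7 genes found and not for the full list. The part of any of these cells in the differences between CLL and non-CLL libraries was not tested. In bulk samples, fewer cells of a type and less RNA per cell cannot be told apart.

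The comparison of CLL cells with aged wild-type B cells sets the leukaemic cells against normal B cells of old mice. Cd9 rose and was the only member of the 8 that passed. The same 5 CLL libraries (232 to 527 TPM) stood against 51.8, 229 and 89.8 TPM in wild-type libraries 1, 2 and 3. The groups did not overlap, as was so for 29.0% of the genes tested, and the nearest wild-type value was that of library 2, the one with transcripts of both sexes. Cd9 was 2.83-fold higher in CLL cells (log2 change 1.50, SE 0.39, 95% interval 0.70 to 2.31, adjusted p = 0.0381, limma). Without wild-type library 2 the log2 change was 2.08 (adjusted p = 8.45e-07), and without wild-type library 1 it was 1.02 and missed the threshold (adjusted p = 0.163). Over 19 alternative fits the call held in 13 (adjusted p between 8.45e-07 and 0.241). TMM rescaling put the log2 change at 0.90 and ended the call (adjusted p = 0.23), and without the filter on low values or with background subtraction it was 1.50 (adjusted p = 0.055) and 1.49 (adjusted p = 0.241).

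The single call among the 8 members compares with 3.54% of 21202 genes, 2.94% called higher and 0.604% called lower, and the median log2 change was -0.05 over the members, 0.93 over all genes and -0.04 over genes with at least 20 TPM. Cd37 was at 654, 590, 997, 773 and 571 TPM in the CLL libraries, against 645, 363 and 406 TPM in the wild-type libraries. The groups overlapped through wild-type library 1, and the log2 change was 0.62 (95% interval 0.02 to 1.22, adjusted p = 0.0994). Cd81 did not pass here (log2 change 0.28, -0.31 to 0.87, adjusted p = 0.476), and its direction turned to -0.32 with TMM rescaling. Tspan32 was at 239, 405, 349, 509 and 289 TPM in the CLL libraries, against 526, 308 and 480 TPM in the wild-type libraries (log2 change -0.30, 95% interval -0.92 to 0.32, adjusted p = 0.466). Cd53 (-0.35), Cd82 (-0.18), Cd151 (-0.23) and Cd63 (0.08) had intervals that included 0. Both comparisons of CLL cells use the same 5 CLL libraries, so the 2 values for Cd9 are not independent of each other.

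In non-CLL B cells of mutant mice against aged wild-type B cells no member passed (0 of 8 by limma, against 57.3% of 22150 genes, 55.8% called higher and 1.48% called lower). At an unadjusted p under 0.05 there was 1, Cd81. Cd81 was at 1841, 1073, 1156 and 898 TPM in the non-CLL libraries, against 1491, 2428 and 1748 TPM in the wild-type libraries. Only non-CLL library 2 lay inside the wild-type range, and the log2 change was -0.63 (SE 0.28, 95% interval -1.24 to -0.02, adjusted p = 0.0741). Without non-CLL library 2 it was -0.83 and passed (adjusted p = 0.0185). Cd9 averaged 62.8 ± 17.1 TPM in non-CLL and 124 ± 93.3 TPM in wild-type cells (log2 change -0.74, adjusted p = 0.198), a log2 change that was -0.16 without wild-type library 2 and, then called, -1.22 without wild-type library 1 (adjusted p = 0.029). The log2 changes of Cd53 (-0.46, 95% interval -1.11 to 0.19), Tspan32 (-0.43, -1.03 to 0.16), Cd37 (0.02, -0.61 to 0.65) and Cd82 (0.17, -0.56 to 0.91) missed the threshold as well, though Cd53 passed without wild-type library 2 (-0.78, adjusted p = 0.0241).

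The share of called genes in this last comparison depended on how genes with low values were treated, and the cause was not tested. The median log2 change over all genes was 1.65, but over the 7220 genes with at least 20 TPM it was 0.02, and 1.15% of those were called. TMM rescaling, under which the median over all genes was 0.73, had 7 of the 8 members called lower, Cd37 at -1.50 (adjusted p = 0.00144) and Cd82 at -1.34 (adjusted p = 0.00234) among them. The share of all genes called lower under that rescaling is not given here. The 7 calls are therefore not read as particular to the members. Cd63 and Cd151 lie so near the background (non-CLL means 7.68 ± 3.96 and 10.4 ± 8.67 TPM, against a background of 8.25 TPM) that their levels in these libraries are not resolved from it.

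**Figure D4:**
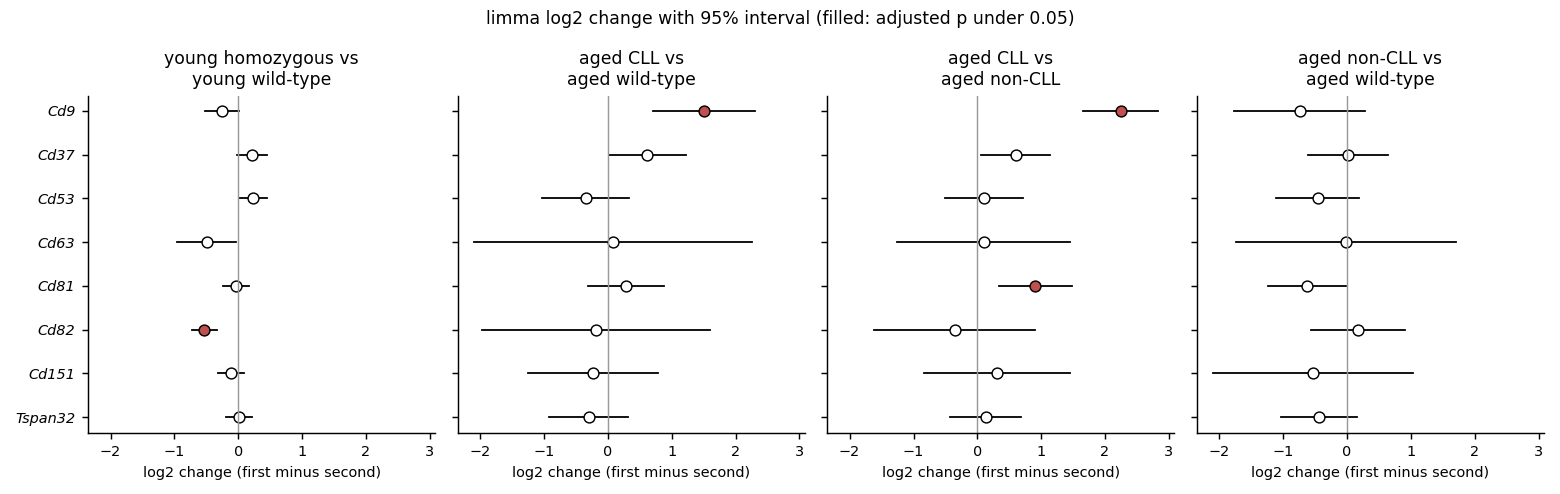
limma log2 change of each gene in the 4 comparisons, with the first-named group minus the second and a 95% interval; filled points passed an adjusted p of 0.05. Filled are Cd82 in young cells (-0.53), Cd9 in CLL cells against wild-type (1.50) and against non-CLL cells (2.24), and Cd81 in CLL against non-CLL cells (0.91).

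The young comparison asks what the mutation changes before any leukaemia. Cd82 was called lower in homozygous cells and no member was called higher. Cd82 stood at 114, 124 and 117 TPM in the young homozygous libraries, against 168, 189 and 157 TPM in the young wild-type libraries. The highest homozygous library was well under the lowest wild-type library. The level in homozygous cells was 0.692 of that in wild-type cells (log2 change -0.53, SE 0.09, 95% interval -0.73 to -0.33, adjusted p = 0.00145, limma). The call held in all 15 alternative fits (adjusted p between 8.13e-05 and 0.0317). With only wild-type library 3, which has the same sex-linked transcripts as the homozygous libraries and the least Lyz2 of the wild-type ones (222 TPM, against 1443 and 2330 TPM), the log2 change was -0.41 (adjusted p = 0.0317), assuming that this 1 library varies like the others. In this small wild-type set Cd82 and Lyz2 were both lowest in library 3, and the part of myeloid transcripts in the difference was not tested.

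The 1 call of 8 compares with 51.0% of 12219 genes, 38.4% called higher and 12.6% called lower. The median log2 change was -0.08 over the members and 0.18 over all genes. Cd37 was at 1468, 1412 and 1516 TPM in homozygous cells, against 1240, 1129 and 1437 TPM in wild-type cells, where only wild-type library 3 reached the homozygous range (log2 change 0.21, 95% interval -0.02 to 0.45, adjusted p = 0.106); without that library the change was 0.31 and passed (adjusted p = 0.0118). Cd53 was at 404, 482 and 488 TPM, against 372, 414 and 382 TPM in wild-type cells (log2 change 0.23, adjusted p = 0.0721, and 0.32 with adjusted p = 0.0205 without homozygous library 1). Cd9 was at 61.3, 69.8 and 56.1 TPM, against 63.8, 82.2 and 79.2 TPM in wild-type cells (log2 change -0.26, adjusted p = 0.0916, and -0.37 with adjusted p = 0.0317 without wild-type library 1). Cd63 was at 2.95, 2.67 and 2.50 TPM in homozygous and 3.51, 6.14 and 3.42 TPM in wild-type libraries; these did not overlap, which also held for 16.9% of all genes in that direction, and the test was missed (log2 change -0.50, adjusted p = 0.0664; -0.62, adjusted p = 0.0349 without wild-type library 3).

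Cd81 and Tspan32 had the smallest log2 changes of the members in young cells on the deposited scale. Cd81 was at 140, 169 and 160 TPM in homozygous and 155, 165 and 160 TPM in wild-type libraries, a log2 change of -0.04 (95% interval -0.24 to 0.16). Tspan32 was at 138, 122 and 132 TPM, against 123, 123 and 144 TPM in wild-type cells (log2 change 0.01, -0.19 to 0.22). Cd151 had a log2 change of -0.12 (-0.32 to 0.08). With TMM rescaling the median over all genes was -0.01 in place of 0.18, 5 members were called, all lower, Cd81 among them (log2 change -0.25, adjusted p = 0.0266), and Tspan32 turned to -0.20. How many of all genes were called lower with TMM is not given here, so the 5 calls cannot be set against that share.

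Other genes of the family and known partners of these proteins were read from lists. Among 23 other tetraspanin genes, 22 were tested between CLL and aged wild-type cells, with 1 higher and 2 lower, beside 2.94% and 0.604% of all genes. Between CLL and non-CLL cells 23 were tested, with 2 lower, beside 5.02% of all genes. Tspan31 stood at 235, 170, 290, 215 and 135 TPM in CLL libraries, against 77.8, 124 and 61.3 TPM in wild-type libraries, without overlap (log2 change 1.26, SE 0.33, adjusted p = 0.0228). Such a separation upward held for 29.0% of the genes tested. Tspan3 stood at 20.2, 12.8, 8.60, 5.16 and 18.4 TPM in CLL libraries, against 38.3, 106 and 83.2 TPM in wild-type libraries (log2 change -2.47, SE 0.43, adjusted p = 0.00022). Every CLL library was below every wild-type library, and the share of all genes separated in that direction was not counted. Tspan3 was also lower in non-CLL than in wild-type cells (29.3 ± 5.53 against 75.9 ± 34.5 TPM, log2 change -1.24, adjusted p = 0.0103).

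Tspan13 set CLL cells apart from non-CLL cells in the direction opposite to Cd9. It stood at 168, 105, 82.5, 156 and 77.6 TPM in the CLL libraries, against 321, 319, 305 and 426 TPM in the non-CLL libraries, again without overlap (log2 change -1.59, SE 0.28, adjusted p = 0.00131). The share of all genes separated downward in this comparison was not counted. Tspan2 was lower in CLL cells at 11.8 ± 6.10 TPM, against 32.5 ± 10.3 TPM in non-CLL cells (log2 change -1.46, adjusted p = 0.0355) and 42.5 ± 34.1 TPM in wild-type cells (log2 change -1.62, adjusted p = 0.043). In non-CLL against wild-type cells 13 of 23 family genes were called higher, near the 55.8% of all genes called higher there, and 12 of them had non-CLL means of at most 16.4 TPM; the remaining one was Tspan13 (343 ± 55.6 against 219 ± 50.3 TPM, log2 change 0.65, adjusted p = 0.0338). In young homozygous cells 2 of 14 tested were lower, near the 12.6% of all genes, namely Tspan13 at 107 ± 2.36 against 131 ± 9.20 TPM in wild-type cells (log2 change -0.29, adjusted p = 0.0125) and Tspan4 at 3.82 ± 0.997 against 12.1 ± 4.95 TPM (log2 change -1.39, adjusted p = 0.0106). Tspan4, like Lyz2, was highest in young wild-type library 2 and lowest in young wild-type library 3. The part of myeloid transcripts in its difference was not tested.

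**Figure D5:**
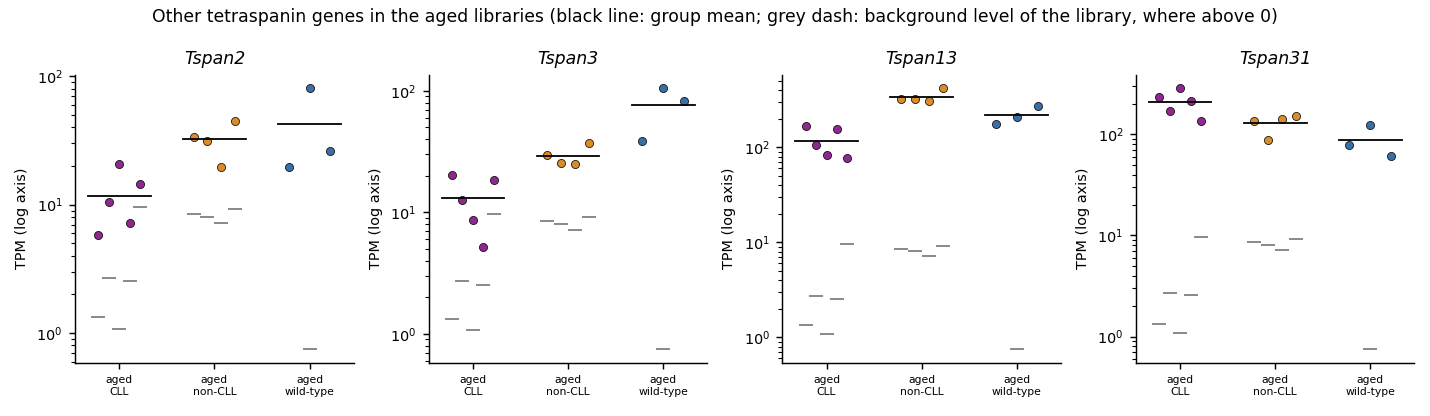
TPM on a log axis of 4 other tetraspanin genes in the aged libraries, with 1 point per library, a black line at the group mean and a grey dash at the background level of each library where it is above 0. Tspan13 lies lower in every CLL library than in every non-CLL library, Tspan31 lies higher in every CLL library than in every wild-type library, and Tspan2 (14.4 TPM) and Tspan3 (18.4 TPM) come close to the background (9.66 TPM) in CLL library 6.

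Cr2, which encodes the CD81 partner CD21, was higher in young homozygous cells, at 340 ± 27.3 TPM against 270 ± 46.6 TPM in wild-type cells (log2 change 0.34, adjusted p = 0.0461). Cd81 itself did not pass in these cells. Of the 4 genes read for the complex 1 was higher and 2 were lower, beside 38.4% and 12.6% of all genes; Ifitm1 and Ifitm2, interferon-induced membrane proteins, were lower (3.70 ± 2.51 against 22.5 ± 10.4 TPM, log2 change -2.43, adjusted p = 0.0298, and 11.7 ± 4.87 against 90.7 ± 47.8 TPM, log2 change -2.79, adjusted p = 0.0153). Their level in wild-type libraries was highest in library 2, the one with the most Lyz2, and these are close paralogs, so the way reads were divided between them is uncertain. In CLL cells none of the 4 passed against either aged group (limma; at an unadjusted p under 0.05 there were 0 against non-CLL and 1 against wild-type cells). Cr2 stood at 18.3, 37.6, 33.5, 513 and 54.0 TPM in CLL libraries, against 53.2, 230, 214 and 163 TPM in non-CLL and 1274, 25.4 and 776 TPM in wild-type libraries, so CLL library 5 was far above the other CLL libraries and all 3 groups overlapped.

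Among 8 integrin genes, Itga6, a laminin-binding integrin chain and a partner of CD151 and CD9, was lower in CLL cells. It stood at 0.981, 6.03, 5.52, 4.73 and 16.4 TPM in CLL libraries, against 19.5, 23.8, 21.2 and 43.6 TPM in non-CLL libraries (log2 change -2.11, SE 0.50, adjusted p = 0.0206) and 15.9, 24.0 and 43.8 TPM in wild-type libraries (log2 change -2.11, adjusted p = 0.0267). The CLL and non-CLL libraries did not overlap, while CLL library 6 lay just above wild-type library 1. In young homozygous cells Itga4 was higher (122 ± 14.4 against 86.2 ± 5.60 TPM, log2 change 0.49, adjusted p = 0.00387), and Itgb2 (108 ± 2.77 against 149 ± 23.7 TPM, log2 change -0.45, adjusted p = 0.00859) and Itga5 (0.586 ± 0.206 against 2.80 ± 0.950 TPM, log2 change -1.24, adjusted p = 0.00227) were lower. Among the young wild-type libraries Itgb2 and Itga5 were highest in library 2 and lowest in library 3, as was Lyz2. The part of myeloid transcripts in these differences was not tested. In non-CLL against wild-type cells 3 of the 8 were called higher, where 55.8% of all genes were, and of these Itgb7, an integrin chain of gut-homing lymphocytes, lay above the background (156 ± 19.4 against 67.8 ± 47.8 TPM, log2 change 1.53, adjusted p = 0.0315). Its wild-type values were 113, 17.9 and 72.5 TPM in libraries 1, 2 and 3. The lowest was that of library 2, which held transcripts of both sexes. Of the 2 immunoglobulin superfamily partners of CD9 and CD81, Igsf8 passed in no comparison and Ptgfrn passed in 1, non-CLL against wild-type cells, at 3.30 ± 0.288 against 0.162 ± 0.199 TPM, under the background level of the non-CLL libraries. Of 4 genes of the sheddase ADAM10 and its substrates, 2 were called higher in young homozygous cells, beside 38.4% of all genes. Notch2, a substrate of ADAM10 and a receptor of marginal zone cells, was higher in young homozygous cells (106 ± 7.04 TPM against 69.3 ± 10.4 TPM in young wild-type cells, log2 change 0.61, adjusted p = 0.00239), as was Fcer2a, which encodes the shed IgE receptor CD23 (1043 ± 40.6 against 627 ± 137 TPM, log2 change 0.75, adjusted p = 0.00279).

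Among 11 genes of vesicles and endosomes, the setting of CD63, 4 of 10 tested were higher in young homozygous cells, near the 38.4% of all genes called higher, namely Pdcd6ip (log2 change 0.49, adjusted p = 0.00326), Hgs (0.44, adjusted p = 0.00362), Vps4a (0.27, adjusted p = 0.0214) and Tsg101 (0.23, adjusted p = 0.0247), and Flot1 was lower (-0.59, adjusted p = 0.00221). Flot1 too was highest in young wild-type library 2 and lowest in library 3, and the part of myeloid transcripts was not tested. Lamp1, a membrane protein of lysosomes, was lower in CLL than in wild-type cells (153 ± 52.4 against 334 ± 94.8 TPM, log2 change -1.14, adjusted p = 0.0383) and lower in non-CLL than in wild-type cells (187 ± 29.8 against 334 TPM, log2 change -0.80, adjusted p = 0.0207). In non-CLL cells Pdcd6ip was also lower than in wild-type cells (70.7 ± 14.8 against 116 ± 20.0 TPM, log2 change -0.72, adjusted p = 0.0319), and Rab27a (24.5 ± 6.63 against 7.36 ± 2.13 TPM) and Rab27b were called higher, the last at 8.72 ± 1.46 TPM in non-CLL cells, which is at their background level of 8.25 TPM. Of 7 receptors and kinases tied to CD37, CD53 or CD82, 3 were higher and 3 lower in young homozygous cells, where 38.4% and 12.6% of all genes were called higher and lower. Prkcb, the protein kinase C of B cell receptor signalling, rose in young homozygous cells (187 ± 12.8 against 130 ± 13.4 TPM, log2 change 0.52, adjusted p = 0.0023), and Socs3, an inhibitor of cytokine signalling, fell (4.13 ± 0.598 against 11.1 ± 1.38 TPM, log2 change -1.23, adjusted p = 0.00036). The phosphatase gene Ptprc rose in young homozygous cells too (736 ± 47.0 against 494 ± 45.5 TPM, log2 change 0.58, adjusted p = 0.00145), whereas it was lower in CLL than in aged wild-type cells (506 ± 188 against 1007 ± 158 TPM, log2 change -1.07, adjusted p = 0.0424) and lower in non-CLL than in aged wild-type cells (668 ± 129 against 1007 ± 158 TPM, log2 change -0.60, adjusted p = 0.0443). Of 5 genes of class II antigen presentation none passed in any of the 4 comparisons (limma; 0 at an unadjusted p under 0.05).

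The genes whose pattern over the 12 aged libraries was most like that of Cd9 were 2010001M09Rik, Atl2 and Plac8. Likeness was the root mean square difference of centred log2(TPM + 1) values among 6782 genes with a mean of at least 20 TPM, and was 0.52, 0.56 and 0.56 log2 units for these 3, against 1.14 for the spread of Cd9 around its own mean. Atl2, which encodes a membrane fusion protein of the endoplasmic reticulum, averaged 144 ± 57.3 TPM in CLL, 44.5 ± 8.27 TPM in non-CLL and 49.8 ± 4.77 TPM in wild-type cells. Plac8 averaged 489 ± 86.1, 218 ± 76.9 and 218 ± 107 TPM in CLL, non-CLL and wild-type cells. For Cd81 the nearest were Pigs, Tap2 and Mccc2 (0.25, 0.25 and 0.26, against a spread of 0.55), and for Tspan32 they were Sltm, Fbxl5 and Ngrn (0.19, 0.19 and 0.20, against 0.38). For Cd63 the nearest, Arhgap26, differed by 0.74 against a spread of 1.19, so its pattern had no close match. The 12 points share 3 groups and their background levels, so these likenesses are descriptions.

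Tssc4, 485 bases beyond Cd81, was at 26.7 TPM in CLL and 19.8 TPM in non-CLL cells (log2 change 0.53, adjusted p = 0.281), and Tspan32, on the other side, is described above. Vwf, the next measured gene beyond Cd9, was at 2.94 TPM in CLL and 7.16 TPM in non-CLL cells (log2 change -1.28, adjusted p = 0.0796), under the background level of the non-CLL libraries. Gm13807, a long noncoding RNA gene 1271 bases from Cd82, was higher in young homozygous cells (3.69 against 2.15 TPM, log2 change 0.56, adjusted p = 0.0139), where Cd82 was lower. Beside Cd37 lies Tead2, 163 bases away, which was higher in young homozygous cells (6.10 against 3.04 TPM, log2 change 0.83, adjusted p = 0.00584), and beside Cd151 lies Polr2l, 378 bases away, which was lower there (17.5 against 27.6 TPM, log2 change -0.63, adjusted p = 0.00139). Neither Cd37 nor Cd151 passed in young cells.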

How the data were processed

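RNA-seq of splenic B cells was analysed in 18 libraries of 5 groups, placed by their titles. The authors deposited TPM values in 2 tables, 1 of the aged and 1 of the young libraries; the labels of the aged samples name TPM as the unit, and every column of either table adds up to 1000000. The submitters' processing notes name the build mm10 and, with no role stated, MACS2 2.2.0, STAR 2.4.0.1 and Bowtie2 2.3.4.1; how values were quantified, on which annotation and whether by strand is not given in the sources used here. Depth is therefore unknown, and counting intervals cannot be had.

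Left out were 25 and 26 entries of the aged and young table whose names had become dates, and 887 nameless entries of the young table, which held 4.44% to 9.36% of TPM. Within each table, a gene was tested if it reached 1 TPM in a number of libraries equal to the size of the smaller group, on the scale log2(TPM + 1) with limma 3.58.1 in R 4.3.3 (trend and robust settings, two-sided), with Benjamini-Hochberg adjustment over all genes tested. Called higher or lower means an adjusted p under 0.05. Folds are taken on this scale and understate changes of low genes. The fit was checked on simulated data. CLL and non-CLL libraries of the same number share a mouse per the series' design text; the correlations of their deviations from the group means were -0.03, 0.03, 0.08 and 0.13, and the fit with the mouse as a block is an alternative.

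Named are the 8 members and Ikzf3. Also named are some called genes of 8 lists of relatives and partners (at most the 6 largest changes per list and comparison). Some of the nearest annotated neighbours and of the 3 most alike genes per member are named too, so the naming is not complete. Library-level markers and sex-linked transcripts are given as checks. Members, lists and alternatives were chosen with earlier results of these data known. Alternatives were TMM rescaling, pseudocounts of 0.1 and 5, no filter, a filter of 20 TPM, subtraction of the background level, library weights, left-out libraries, blocks, heterozygous libraries only and a fit on all aged groups. The RefSeq gene table of GRCm38.p6 held 20356 symbols of the aged table and 25054 of the young one. No column was left unmapped. A listed gene is not reported here.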

Additional observations from a re-analysis of the deposited data

Results flagged for a closer look

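Gaps within groups were tested in 18 cases, the 8 tetraspanin genes and Ikzf3 in the CLL and the non-CLL libraries. In 5 cases a single library stood far from the rest of its group, each time as the highest. The cutoffs give about 1 in 20 such groups for normally distributed values. TPM was used untransformed and the cases share libraries, so the 5 cannot be set against that rate. Cd9 was at 526.63 TPM in CLL library 1, whose gap to the next library was 0.846 of the group's range; without it the log2 change of Cd9 was 2.03 against non-CLL cells and 1.29 against wild-type cells, both still called. Cd53 was at 645.85 TPM in the same library (0.729 of the range), which also held the most Cd3g of the CLL libraries (362 TPM). Cd3e, Cd3d and Cd4 were only at 2.03, 6.02 and 1.02 TPM there. Whether Cd53 and Cd3g are linked was not tested. Cd63 was at 44.165 TPM in CLL library 2 (0.834 of the range), the library with 656 TPM of Lyz2. Cd82 was at 711.77 TPM in CLL library 5 (0.717 of the range). Cd53 was at 397.25 TPM in non-CLL library 5 (0.871 of the range).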

How the results depend on the processing

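Of 544 values of single tetraspanin genes under an alternative, 454 kept their direction and their side of the threshold, 20 lost a call, 22 gained one and 48 changed sign. TMM rescaling moved the median of all genes to -0.01 from 0.18 (young), to 0.55 from 0.93 (CLL against wild-type), to -0.08 from -0.77 (CLL against non-CLL) and to 0.73 from 1.65 (non-CLL against wild-type); the cause was not tested.

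Numbers of members called. In young cells (1 called) there were 5 with TMM, 3 with library weights and 1 to 3 with 1 library left out. For CLL against wild-type (1 called) there were 0 with TMM, no filter, a filter of 20 TPM, background subtraction or the replicate block, 3 with library weights, and 0 or 1 with 1 library left out. For CLL against non-CLL (2 called) there was 1 with TMM, either pseudocount, no filter, a filter of 20 TPM, background subtraction or the replicate block, and 1 or 2 with 1 library left out. For non-CLL against wild-type (0 called) there were 7 with TMM, 2 with library weights and 0 or 1 with 1 library left out. The shares of all genes called with TMM in young cells and in non-CLL against wild-type are not given here. The 5 and 7 calls with TMM are therefore descriptions only.

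Numbers of all genes called. Young (6237): 4002 with a filter of 20 TPM (fewer genes tested) and 2925 without wild-type libraries 1 and 2. CLL against wild-type (751): 6857 with TMM, 8853 and 265 with pseudocounts of 0.1 and 5, 457 with no filter, 149 with a filter of 20 TPM, 37 with background subtraction, 12299 with library weights, 2 with the replicate block, 5277 with heterozygous libraries only, 6712 with all aged groups and 347 to 7914 with 1 library left out. CLL against non-CLL (1287): 369 with TMM, 256 with a pseudocount of 0.1, 232 with a filter of 20 TPM, 187 with background subtraction, 11705 with library weights, 697 with the replicate block, 11187 with heterozygous libraries only, 3387 with all aged groups and 325 to 11107 with 1 library left out. Non-CLL against wild-type (12681): 83 with a filter of 20 TPM and 635 with background subtraction. With TMM the split of calls was 5885 higher and 972 lower for CLL against wild-type and 256 higher and 113 lower for CLL against non-CLL.

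Changed signs, as log2 changes. Young: Tspan32 -0.20 with TMM, -0.14 without wild-type libraries 1 and 2 and -0.03 to 0.09 with 1 library left out; Cd81 0.04 with library weights and -0.10 to 0.04. CLL against wild-type: Cd63 -0.41 with TMM, -0.81 with background subtraction, -0.36 with library weights, -1.46 without CLL library 2 and wild-type library 2 (chosen after seeing the data) and -0.85 to 0.87 with 1 library left out; Cd81 -0.32 with TMM; with the replicate block Cd53 0.16, Cd82 0.14 and Cd151 0.18; with 1 library left out Cd82 -0.61 to 0.22 and Cd151 -0.48 to 0.13. CLL against non-CLL: Cd82 0.56 with TMM, Cd151 -0.37 with library weights, Cd53 -0.16 with the replicate block, with heterozygous libraries only Cd63 -0.36 and Cd151 -0.34, and with 1 library left out Cd53 -0.16 to 0.27, Cd63 -0.51 to 0.45, Cd82 -0.78 to 0.05, Cd151 -0.33 to 0.78 and Tspan32 -0.03 to 0.27. Non-CLL against wild-type: Cd37 -1.50 and Cd82 -1.34 with TMM, Cd63 0.10 with a pseudocount of 0.1, Cd37 -0.01 with background subtraction, Cd82 -0.06 with library weights, with heterozygous libraries only Cd63 0.37 and Cd151 0.10, and with 1 library left out Cd37 -0.15 to 0.27, Cd63 -0.95 to 0.77, Cd82 -0.26 to 0.45 and Cd151 -1.02 to 0.10.

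Young libraries share only a number (correlations -0.10, 0.24 and 0.32 for numbers 1, 2 and 3), and with the replicate block Cd82 stayed at -0.53 (adjusted p = 0.00127). CLL and wild-type numbers name different mice, so that block (Cd9 1.77, adjusted p = 0.138) pairs nothing. For non-CLL against wild-type no block was fitted. These libraries share 1 number only, and mutant and wild-type numbers name different mice. Depth is unknown, and levels near the background cannot be resolved in the aged table.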
